A study of Mus musculus with 10 samples.

Results

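Trem2 and 9 genes of the disease-associated microglia (DAM) programme were followed across the microglia of the midbrain (Mdb) and the striatum (Str) of healthy mice. The 10 genes were chosen by symbol, from its receptors, adaptor and membrane proteins (Trem2, Tyrobp, Axl, Clec7a, Itgax, Cd9, Gpnmb) and its secreted and lysosomal products (Spp1, Csf1, Cst7). All 10 were among the 53715 genes counted. Microglia had been isolated with CD11b magnetic beads from the brains of untreated C57BL/6 mice (3 months of age), and bulk libraries of their poly-A RNA were read with MARS-seq, which captures the 3′ end of transcripts. The question put to these libraries was how microglia of the 2 regions differ at steady state.

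The libraries formed 2 cohorts, and all animals were healthy and untreated. The pilot cohort held 2 midbrain and 2 striatum libraries. The second cohort held 2 midbrain and 2 striatum libraries (replicates 1 and 3 of each region) whose labels agree on the region, and 2 more libraries whose title names one region while the label of the deposited table names the other. Those 2 are given as values only, under their titles ("Mdb 2" and "Str 2"), and entered no comparison other than the alternative fits that place them in a region. CD11b is carried by microglia, border macrophages, monocytes and neutrophils, so the beads do not separate these cells. By flow cytometry the study found nearly all of the isolated cells to be low in CD45, as it defined microglia, and a few to be high in CD45. The study examined both regions of the same mice, but no source used here says which libraries share a mouse, and for some libraries of the second cohort the 2 labels carry different replicate numbers. Libraries were therefore not paired, and p-values measure the spread between these libraries only.

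TREM2 is a lipid-sensing receptor of microglia that has no signalling tail of its own and works through the adaptor TYROBP (DAP12), whose phosphorylated motif recruits the kinase SYK. In mouse models of amyloid, ageing and demyelination, microglia enter the DAM programme in a stage that does not need Trem2, in which homeostatic genes fall, and pass to a later stage that does, in which genes such as Axl, Clec7a, Cst7, Spp1, Itgax and Csf1 rise. Itgax, Clec7a and Spp1 also mark microglia of developing white matter, and outside microglia several of these genes are expressed by other myeloid cells: Clec7a by monocytes, neutrophils and macrophages, Itgax by dendritic cells, and Spp1 by border macrophages.

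The genes lie on the GRCm38 build as follows. Trem2 spans chr17:48346401-48354147 on the plus strand, Tyrobp chr7:30413760-30417585 (plus), Cst7 chr2:150570415-150578944 (plus), Spp1 chr5:104435118-104441050 (plus) and Itgax chr7:128129547-128150657 (plus). Gpnmb spans chr6:49036546-49070929 (plus). On the minus strand, Axl spans chr7:25757273-25788705, Clec7a chr6:129461591-129472779, Cd9 chr6:125460266-125494791 and Csf1 chr3:107741048-107760469. The reads were counted over exons without strand and reads that fell in more than 1 gene were dropped. This matters for 2 of the genes, since 18.8% of the exonic bases of Spp1 also belong to the overlapping gene Gm42793 and 10.7% of those of Cd9 to Gm26728, which lies on the opposite strand.

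The assigned libraries held between 575709 and 8463782 counts. The shallowest, replicate 3 of the second cohort's striatum, stood apart: 3 counts there correspond to 5.16 CPM (reads per gene after TMM scaling of library sizes to a shared total), against 0.35 CPM in the deepest library, and it gave only 6 reads each for Spp1 and Clec7a. Amplified reads are not separate molecules, so intervals on such counts cover counting error alone. Each of the 8 microglia identity genes, among them Itgam, Csf1r and Tmem119, was detected in every group. Their summed level was 10528 to 12410 CPM in the midbrain libraries and 14012 to 18531 CPM in the striatum libraries, so that it moved with region as Trem2 did. In the joint fit 7 of the 8 had a negative log2 fold change, with a median of -0.37, of which limma called 0, edgeR 0 and DESeq2 1. At an unadjusted p under 0.05, 5 of the 8 were lower, where 2046 of all 14053 genes were at that level in either direction. Genes of other myeloid cells were detected too. The 9 border macrophage markers summed to 1454 to 2673 CPM in the 4 midbrain libraries and to 316 to 830 CPM in the 4 striatum libraries, so that the regions did not overlap. None of these markers was at 0 in any group of libraries, and their part in the results below was not tested. In bulk libraries, fewer cells of a type and less of its RNA per cell cannot be told apart.

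The pattern of the 10 genes was split. Spp1, Clec7a and Axl were higher in the midbrain than in the striatum in every pair of libraries within both cohorts, by 2.64 to 4.16 times in the joint estimate. Trem2 itself and Cd9 lay the other way, with every midbrain library below both striatum libraries of its cohort, though neither passed the test. Tyrobp, Csf1 and Cst7 did not separate the regions in both cohorts. Itgax was higher in the midbrain of the pilot cohort, and Gpnmb was too low to be tested.

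**Figure D1:**
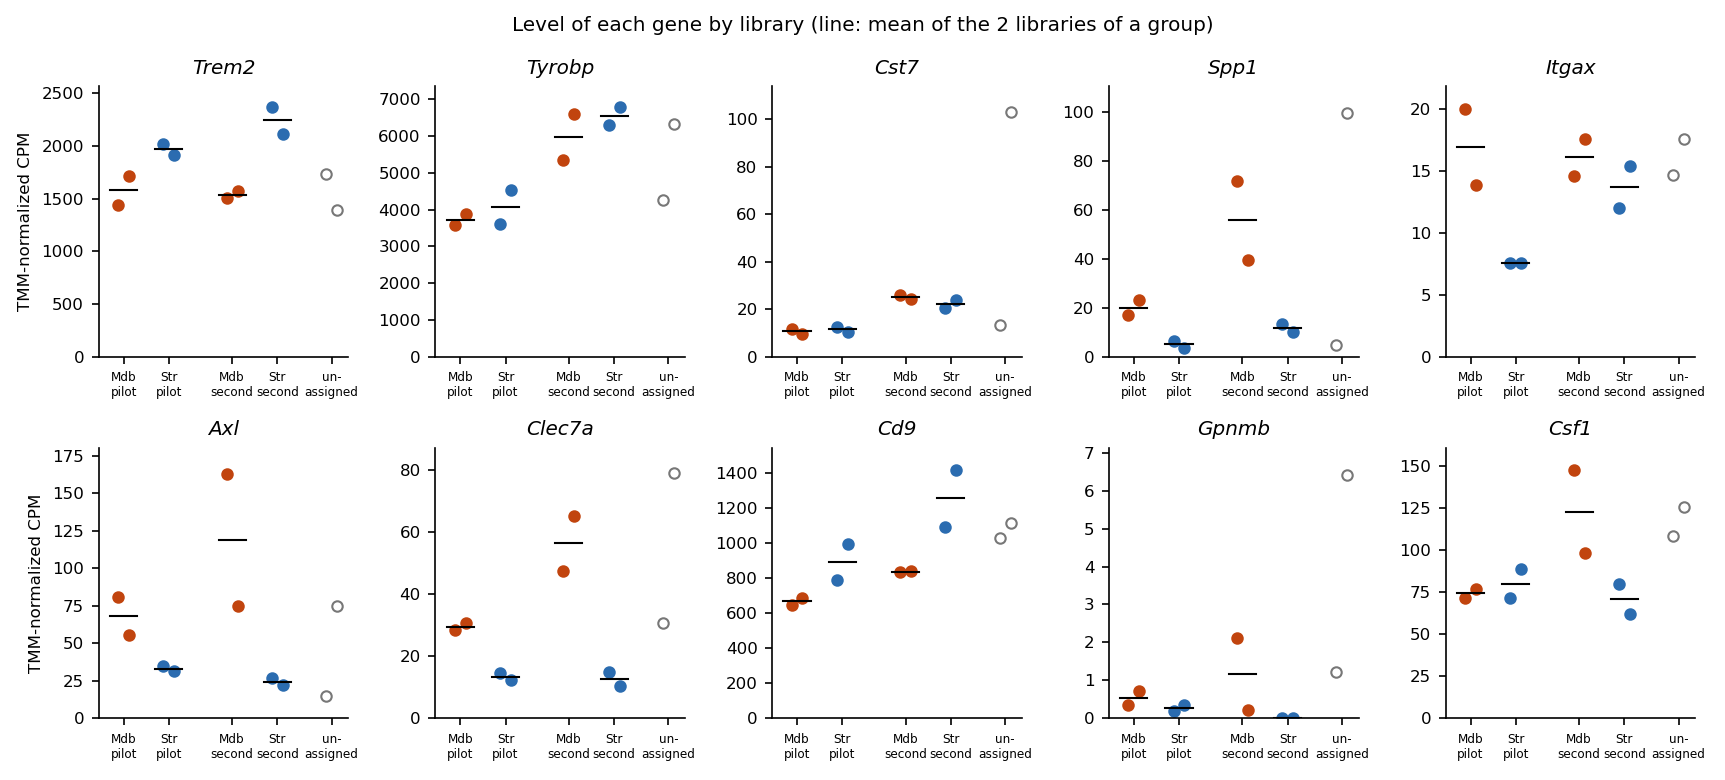
Level of each of the 10 genes in TMM-normalized CPM (y axis, linear, from 0) in each library of the pilot and second cohorts, with midbrain (Mdb) in orange, striatum (Str) in blue and the 2 libraries of conflicting labels as open grey circles ("Mdb 2" left, "Str 2" right); lines are means of 2 libraries. Spp1, Axl and Clec7a lie higher and Trem2 and Cd9 lower in the midbrain of both cohorts, and the open circle of "Str 2" reaches 103 CPM for Cst7 and 99.6 CPM for Spp1.

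The promoters of the genes that were higher in the midbrain in both cohorts, and that of Trem2 for comparison, are shown as the 250 bases before the transcript start, read 5′ to 3′ on the strand of the gene (RefSeq, GRCm38.p6). Capitals mark matches to GAGGAA and to TGANTCA, each searched on both strands. GAGGAA is a form of the site of PU.1, the transcription factor on which microglia and other myeloid cells depend. TGANTCA is the AP-1 motif with any base allowed at its centre, which is looser than the motif itself. The Spp1 window is chr5:104434861-104435110, that of Clec7a chr6:129472780-129473029, that of Axl chr7:25788734-25788983 and that of Trem2 chr17:48346151-48346400.
Spp1: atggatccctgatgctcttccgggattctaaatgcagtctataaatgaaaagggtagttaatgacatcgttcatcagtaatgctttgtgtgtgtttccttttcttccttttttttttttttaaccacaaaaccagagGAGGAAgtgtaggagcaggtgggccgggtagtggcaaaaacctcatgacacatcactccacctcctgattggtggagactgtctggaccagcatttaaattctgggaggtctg
Clec7a: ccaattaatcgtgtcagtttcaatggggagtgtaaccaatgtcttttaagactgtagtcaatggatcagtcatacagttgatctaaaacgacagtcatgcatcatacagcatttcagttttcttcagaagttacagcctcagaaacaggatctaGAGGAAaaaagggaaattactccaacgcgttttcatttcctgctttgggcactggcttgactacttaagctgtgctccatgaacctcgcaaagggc
Axl: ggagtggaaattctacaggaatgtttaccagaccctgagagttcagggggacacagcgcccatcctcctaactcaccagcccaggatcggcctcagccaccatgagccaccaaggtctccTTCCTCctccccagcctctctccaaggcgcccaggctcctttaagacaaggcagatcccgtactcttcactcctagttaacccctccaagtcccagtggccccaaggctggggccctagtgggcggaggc
Trem2: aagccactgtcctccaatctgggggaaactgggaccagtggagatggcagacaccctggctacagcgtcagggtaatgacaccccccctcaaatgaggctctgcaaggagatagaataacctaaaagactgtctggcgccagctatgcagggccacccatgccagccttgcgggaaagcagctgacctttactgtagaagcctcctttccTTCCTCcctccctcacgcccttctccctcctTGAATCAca

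Spp1 and Clec7a each have 2 start sites in the table, and the first is shown. The second window of Spp1, chr5:104435942-104436191, held no match to GAGGAA, and that of Clec7a largely overlaps the first. Each of the 4 windows shown held 1 match to GAGGAA, a motif found in 23.3% of the 32817 windows of the same length in the RefSeq table. The windows of Cst7, Itgax, Cd9, Gpnmb and Csf1, which are not shown, held no match to it. The Trem2 window, which ends close to the gene's start with TGAATCA, also held 1 match to TGANTCA, as did that of Itgax, where 6.75% of all windows do. No window of the 9 genes matched in the table (all but Tyrobp) held CACGTG, the E-box of the MiT/TFE factors, which 6.02% of all windows hold. Other forms of these sites were not searched. The matches are letters in a sequence and no measurement of binding.

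Trem2, the receptor, was among the genes whose regions did not overlap in either cohort. Its level was 1441 and 1715 CPM in the midbrain libraries of the pilot cohort and 2013 and 1917 CPM in the striatum libraries. In the second cohort it was 1501 and 1569 CPM in the midbrain and 2372 and 2114 CPM in the striatum. Every midbrain library thus lay below every striatum library of both cohorts. Ordered by their means, the groups ran from the midbrain of the second cohort (1535 ± 48.4 CPM; SD, n = 2) and of the pilot cohort (1578 ± 194), which overlap, to the striatum of the pilot (1965 ± 67.5) and of the second cohort (2243 ± 183), which do not.

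The log2 fold change of Trem2, midbrain over striatum, was -0.37 ± 0.18 (SE) in the pilot cohort and -0.57 ± 0.21 in the second. In the joint fit of the 8 libraries, with the cohort as a covariate, it was -0.43 ± 0.12, which is 1.35 times higher in the striatum, and all 4 midbrain libraries lay on the low side (limma, Benjamini-Hochberg adjusted p = 0.115 over 14053 genes). The difference did not pass the threshold. An exact two-sided permutation test of the region labels within cohorts gave p = 0.0556 for Trem2, the smallest value that the 36 possible labelings allow, so that no single gene could reach 0.05 by that test.

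Tyrobp, the adaptor, differed more between cohorts than between regions. Its level was 3575 and 3873 CPM in the pilot midbrain and 3603 and 4538 CPM in the pilot striatum, and 5345 and 6597 CPM against 6316 and 6786 CPM in the second cohort. The regions overlapped in both cohorts. Its log2 fold change in the joint fit was -0.13 ± 0.12 (limma, adjusted p = 0.674), while the second cohort lay 0.67 above the pilot on the log2 CPM scale in the midbrain and 0.69 in the striatum.

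None of the signalling genes downstream of the 2 passed the test in either direction. Of 26 genes of TREM2 and TYROBP signalling, 25 were tested in each fit, and limma called 0 in the pilot cohort, in the second cohort and in the joint fit. At an unadjusted p under 0.05 the joint fit held 2 of the 25 that were higher and 1 that was lower. Over all genes it held 2046 of 14053 at that level in either direction. Of the 25, edgeR called 0 and DESeq2 called 1, which was higher. Their median log2 fold change in the joint fit was -0.07, against 0.04 over all genes, with 12 genes positive and 13 negative. Syk, the kinase that TYROBP recruits, stood at 0.05 and Plcg2, the phospholipase C downstream of it, at -0.09. These joint values average opposite cohorts: Syk was at -0.35 in the pilot and 0.50 in the second cohort, and Plcg2 at -0.38 and 0.21, each with regions that did not overlap in either cohort. The difference between the cohorts did not pass the interaction test for Syk (0.82 ± 0.29; limma, adjusted p = 0.860) or for Plcg2 (0.58 ± 0.31; adjusted p = 0.861). Among the genes with no library under 10 counts, the largest differences were those of Adam10, which sheds the ectodomain of TREM2 (-0.60 ± 0.36; limma, adjusted p = 0.481), Dok3, an adaptor that inhibits TYROBP signalling (0.44 ± 0.16; adjusted p = 0.226), and Inpp5d, the phosphatase SHIP1 (-0.37 ± 0.16; adjusted p = 0.320).

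Receptors that share the TYROBP adaptor with TREM2 were less uniform. Of 15 such receptors 13 were tested in the joint fit, of which 1 was called higher (Trem1) and 1 lower (Siglech) in the midbrain. That fit called 0.975% of all genes higher and 0.0854% lower. Without the shallowest library neither Trem1 nor Siglech was called. Trem1, a receptor of neutrophils and monocytes, was at 16.4 and 13.9 CPM in the pilot midbrain against 5.88 and 6.43 CPM in the striatum, and at 77.7 and 44.6 CPM against 7.27 and 3.44 CPM in the second cohort, the last of these from 2 reads. Its log2 fold change in the joint fit was 2.04 ± 0.43 (limma, adjusted p = 0.0456). Siglech, a lectin of microglia and plasmacytoid dendritic cells, ran the other way. It was at 674 and 855 CPM in the pilot midbrain against 1145 and 1423 CPM in the striatum, and at 906 and 1449 CPM against 1969 and 2428 CPM, with a log2 fold change of -0.84 ± 0.17 (limma, adjusted p = 0.0417). Klrk1, the receptor NKG2D of natural killer and T cells, was called in each cohort (log2 fold changes of 1.95 ± 0.52 and 3.03 ± 0.93) but not in the joint fit (limma, adjusted p = 0.0564), with 0 reads in the shallowest striatum library.

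Spp1, which encodes the secreted phosphoprotein osteopontin, had the largest log2 fold change of the 9 tested genes in the pilot cohort and in the joint fit, while Axl had a slightly larger one in the second cohort. Its level was 17.1 and 23.1 CPM in the pilot midbrain against 6.64 and 3.74 CPM in the pilot striatum, and 71.9 and 39.7 CPM in the second midbrain against 13.5 and 10.3 CPM in the striatum. Both cohorts thus put every midbrain library above every striatum library, at a higher level in the second cohort in both regions. The lower of the second cohort's striatum values rests on 6 reads in the shallowest library, with an exact 95% Poisson interval of 3.78 to 22.4 CPM, whose upper bound lies below both midbrain libraries of that cohort. The log2 fold change was 1.99 ± 0.38 in the pilot cohort and 2.04 ± 0.50 in the second. In the joint fit it was 2.06 ± 0.33, a 4.16-fold difference, in the same direction in all 4 midbrain libraries (limma, adjusted p = 0.0209).

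Clec7a, which encodes the beta-glucan receptor dectin-1, was the other of the 10 genes called in the joint fit. Its level was 28.2 and 30.7 CPM in the pilot midbrain and 14.6 and 12.3 CPM in the striatum, and 47.5 and 65.2 CPM against 14.9 and 10.3 CPM in the second cohort. The striatum libraries of the 2 cohorts overlapped, and the midbrain libraries lay above all of them. The 6 reads behind the last value give an exact 95% Poisson interval of 3.78 to 22.4 CPM. Midbrain over striatum, its log2 fold change was 1.10 ± 0.25 in the pilot cohort, 1.98 ± 0.44 in the second and 1.45 ± 0.24 in the joint fit, or 2.73 times (limma, adjusted p = 0.0226, higher in 4 of 4 midbrain libraries).

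Axl, a receptor tyrosine kinase through which phagocytes take up dying cells, was also separated by region. It stood at 81.2 and 55.3 CPM in the pilot midbrain and at 34.7 and 31.5 CPM in the striatum. In the second cohort it stood at 163 and 74.7 CPM in the midbrain and at 26.6 and 22.3 CPM in the striatum. No midbrain library reached down to a striatum library in either cohort. The midbrain libraries of the second cohort ranked Axl and Clec7a in opposite order, with Axl higher in replicate 1 and Clec7a in replicate 3. Its log2 fold change was 0.98 ± 0.24 in the pilot cohort and 2.09 ± 0.48 in the second, both past the threshold used within a cohort, and 1.40 ± 0.31 in the joint fit, where it did not pass (limma, adjusted p = 0.0593). With the replicate number as a block it did (limma, adjusted p = 0.0233), and over all alternatives on the assigned libraries the adjusted p ranged from 0.000154 to 0.236.

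Itgax, which encodes CD11c, the integrin alpha X chain, was higher in the midbrain of the pilot cohort alone. Its level there was 20.0 and 13.9 CPM against 7.59 and 7.60 CPM in the striatum. It passed the threshold narrowly there (limma, unadjusted p = 0.00914), and edgeR called it too (unadjusted p = 0.00735). DESeq2 did not (unadjusted p = 0.0115). In the second cohort the regions overlapped, at 14.6 and 17.6 CPM in the midbrain and 12 and 15.5 CPM in the striatum, the last from 9 reads with an exact 95% interval of 7.07 to 29.4 CPM. The log2 fold change was 1.08 ± 0.33 in the pilot cohort, 0.29 ± 0.44 in the second and 0.83 ± 0.27 in the joint fit (limma, adjusted p = 0.179). The difference between the cohorts did not pass the interaction test (-0.84 ± 0.52; limma, adjusted p = 0.865).

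Cd9, a tetraspanin of the cell membrane, followed Trem2 in direction. It was at 649 and 689 CPM in the pilot midbrain against 787 and 997 CPM in the striatum, and at 836 and 840 CPM against 1092 and 1419 CPM in the second cohort. The regions did not overlap in either cohort. Midbrain over striatum, its log2 fold change was -0.45 ± 0.20 in the pilot, -0.57 ± 0.23 in the second and -0.48 ± 0.13 in the joint fit, which is 1.40 times higher in the striatum and missed the threshold (limma, adjusted p = 0.115). By the exact permutation test Cd9 had the same p of 0.0556 as Trem2, Spp1, Axl and Clec7a. That is the smallest value the test allows. Every gene whose regions are apart in the same direction in both cohorts receives it, which were 9.06% of all genes with the midbrain higher and 6.04% with it lower.

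Csf1, the growth factor on which microglia depend through its receptor Csf1r, was not ordered alike in the cohorts. Its level was 71.4 and 77.1 CPM in the pilot midbrain and 71.5 and 88.5 CPM in the striatum, and 148 and 98.2 CPM against 79.7 and 61.9 CPM in the second cohort. The regions overlapped in the pilot cohort and were apart in the second. Its log2 fold change was -0.15 ± 0.20 and 0.69 ± 0.32, and the difference of 0.80 ± 0.37 between the cohorts did not pass the interaction test (limma, adjusted p = 0.860).

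Cst7, which encodes cystatin F, an inhibitor of lysosomal cysteine proteases, differed by cohort and not detectably by region. It was at 11.6 and 9.75 CPM in the pilot midbrain and 12.5 and 10.6 CPM in the striatum, and at 26.1 and 24.4 CPM against 20.4 and 24.1 CPM in the second cohort. All 4 libraries of the second cohort lay above all 4 of the pilot. The log2 fold change in the joint fit was 0.06 ± 0.21 (limma, adjusted p = 0.921).

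Gpnmb, a transmembrane glycoprotein of lysosome-rich phagocytes, was at the limit of detection. The 4 midbrain libraries held 2, 4, 10 and 1 reads and the 4 striatum libraries 1, 3, 0 and 0 reads, so that it did not pass the filter on low counts and was not tested. Only replicate 1 of the second midbrain, at 2.12 CPM, held more than 4 reads. In the striatum of the second cohort, 3 reads would correspond to 1.09 and 5.16 CPM, so a level like that of the midbrain was not detectable in the shallower of these libraries.

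**Figure D2:**
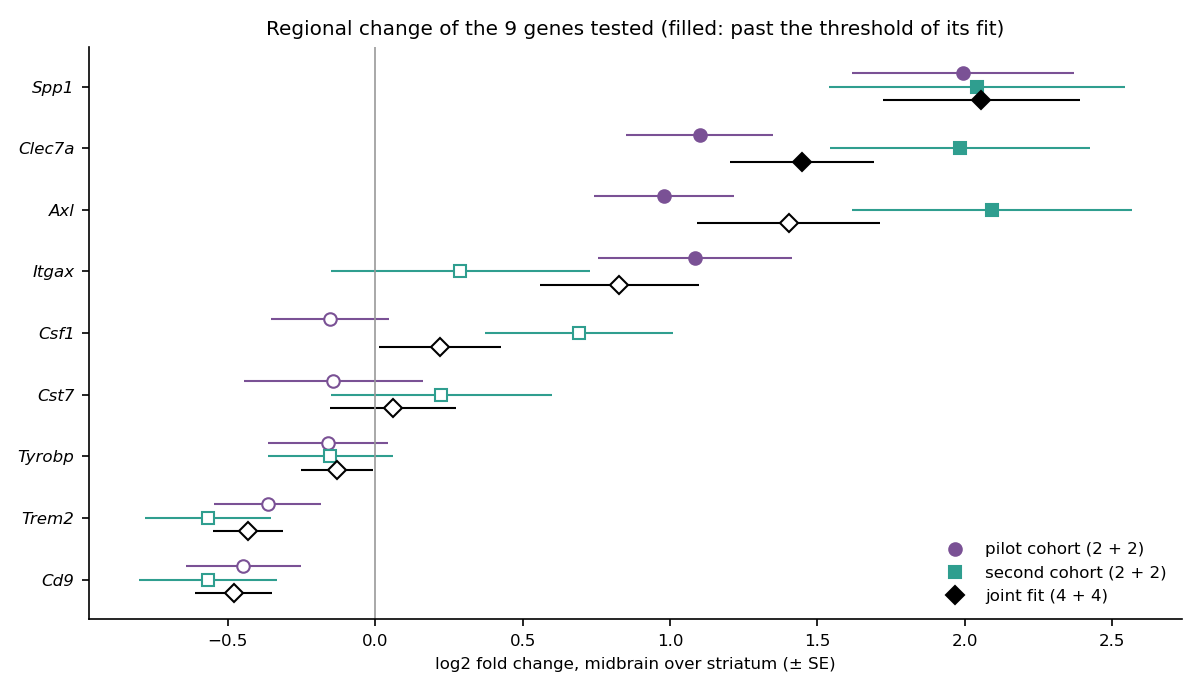
Log2 fold change, midbrain over striatum (x axis), of the 9 genes tested, with bars of 1 SE, in the pilot cohort (circles), the second cohort (squares) and the joint fit (diamonds); filled symbols passed p under 0.01 within a cohort or adjusted p under 0.05 in the joint fit. Spp1 lies near 2 in all 3 fits (1.99, 2.04 and 2.06), and Trem2 and Cd9 lie below 0 in all 3.

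Counted over the 10 genes, 9 were tested, and 4 of them (Spp1, Clec7a, Axl, Itgax) were higher in the midbrain of the pilot cohort at an unadjusted two-sided p under 0.01 with limma, where 2.09% of all 14972 genes tested were. In the second cohort 3 were higher (Spp1, Clec7a, Axl), against 2.88% of 13486 genes. In the joint fit 2 were (Spp1, Clec7a), against 0.975% of 14053 genes. The count of these genes that were lower was 0 in each, where the shares over all genes were 0.548%, 0.593% and 0.0854%. At an unadjusted p under 0.05, Cd9 was lower in the pilot cohort, and Trem2 and Cd9 were lower in the second cohort and in the joint fit. In either direction, 5, 5 and 6 of the 9 genes were at that level in the pilot, second and joint fits. Over all genes these were 1626 of 14972, 1431 of 13486 and 2046 of 14053. DESeq2 called Trem2 lower in the joint fit. Across both cohorts, 3 of the 10 genes had midbrain libraries that lay wholly above the striatum (Spp1, Clec7a, Axl), against 9.06% of all genes, and 2 wholly below (Trem2, Cd9), against 6.04%. The median log2 fold change of the 9 genes was -0.14 in the pilot cohort, 0.29 in the second and 0.22 in the joint fit, against 0.02, -0.001 and 0.04 over all genes.

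These calls rest on few libraries. Within a cohort, 0 of the 9 genes had an adjusted p under 0.05, and the lowest values were 0.167 for Spp1 in the pilot cohort and 0.102 for Clec7a in the second (limma). Without the shallowest library, replicate 3 of the second striatum, 2 of the 9 genes were called in the second cohort (Axl, Clec7a) and 0 in the joint fit, which then called 3 genes in all. The joint fit also called 0 of the 9 without replicate 1 of the pilot midbrain, replicate 1 of the pilot striatum or replicate 1 of the second striatum. Over all genes these fits called 0, 9 and 0, so the loss was not particular to the 9. For the interaction of region and cohort 0 of the 9 genes passed, as 0% of all 14053 genes did (limma). At an unadjusted p under 0.05 these were 0 of the 9 and 771 of all genes, and DESeq2 called 3 genes, none of the 9.

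How the genes moved relative to Trem2 was described by their reads per 1000 Trem2 reads of the same library, a ratio that no scaling between libraries enters. Trem2 was itself lower in every midbrain library, so the ratio is raised in the midbrain for every gene, and where a gene separates the regions on this scale but not by CPM, or the reverse, the denominator accounts for it. Per 1000 Trem2 reads, Axl gave 56.3 and 32.2 reads in the pilot midbrain against 17.2 and 16.4 in the striatum, and 109 and 47.6 against 11.2 and 10.6 in the second cohort. Clec7a gave 19.6 and 17.9 against 7.25 and 6.40, and 31.7 and 41.6 against 6.29 and 4.88. Itgax, whose regions overlapped by CPM in the second cohort, gave 13.9 and 8.11 reads against 3.77 and 3.96 in the pilot cohort and 9.76 and 11.2 against 5.06 and 7.32 in the second, and its regions did not overlap on this scale. Cd9 gave 451 and 402 reads against 391 and 520, and 557 and 535 against 460 and 672, and its regions overlapped in both cohorts, while they did not by CPM. Tyrobp, Csf1 and Cst7 overlapped in the pilot cohort and were higher in the midbrain of the second.

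**Figure D3:**
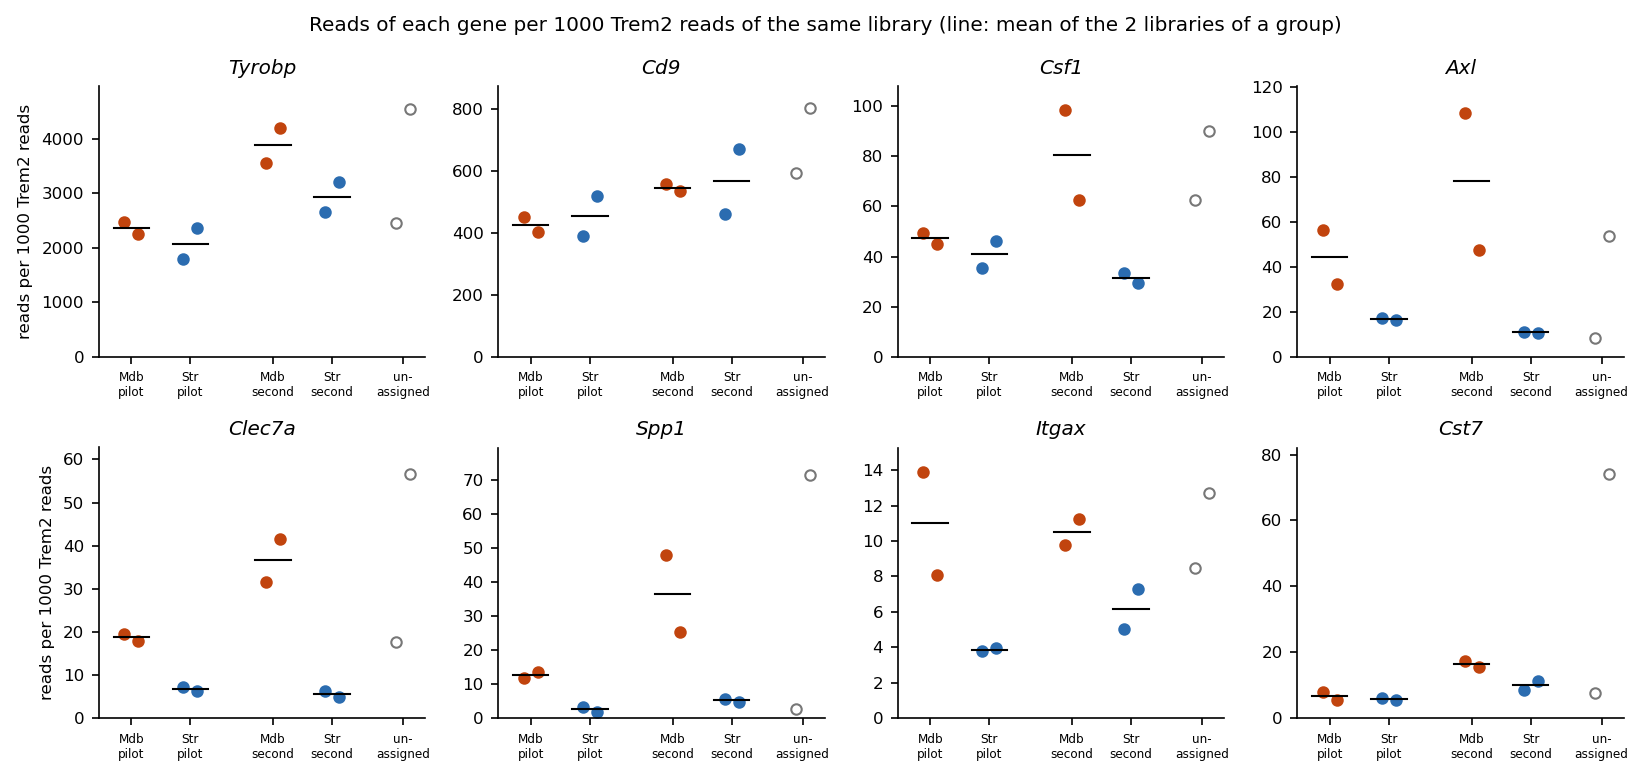
Reads of each gene per 1000 Trem2 reads of the same library (y axis, linear, from 0) by group, with midbrain in orange, striatum in blue, the 2 libraries of conflicting labels as open grey circles and lines for the means of 2 libraries. Axl, Clec7a, Spp1 and Itgax lie higher in the midbrain of both cohorts and Cd9 overlaps (451 and 402 against 391 and 520 in the pilot cohort), on a scale whose denominator is itself lower in the midbrain, so that Itgax and Cd9 stand differently here than by CPM.

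The spread of the genes over the 8 libraries differed as widely. From the lowest to the highest library Spp1 ranged 17.4-fold, Axl 7.18-fold and Clec7a 6.11-fold, against 1.65-fold for Trem2, 1.90-fold for Tyrobp and 2.19-fold for Cd9. These ranges come from log2 CPM with a prior count of 2 added. For Spp1, Axl and Clec7a they are smaller than the CPM printed above would give. Between replicates of a group, the pooled SD on the log2 CPM scale was 0.45 for Spp1 and for Axl, 0.26 for Clec7a and 0.11 for Trem2. Among 7036 genes with at least 10 counts in every assigned library, profiles among those most like that of Trem2 over the 8 libraries, by the root mean square difference of centred log2 CPM, were those of Comtd1 (0.06), Usp2 (0.10), Sparc (0.11) and Ftsj1 (0.11). Sparc is on the homeostatic list. Of the other 9 genes, Cd9 ranked 707th and Tyrobp 3097th by this measure, and Axl 6956th.

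Other genes of the DAM programme were likewise divided. Of 28 further DAM genes, 27 were tested in the joint fit, where 4 were higher in the midbrain (Apoe, Lyz2, Igf1, Gpr65) and 0 lower, with a median log2 fold change of 0.65 against 0.04 over all genes. Within the pilot cohort 8 of 27 were called higher and 0 lower, and within the second 10 of 28 higher and 1 lower. Of all genes tested, 2.09% and 2.88% were called higher in these cohorts, 0.548% and 0.593% lower, and 0.975% higher in the joint fit. Without the shallowest library the DAM genes called higher were 3 of 28 in the second cohort and 1 of 27 in the joint fit. DESeq2 called 10 of them higher and 2 lower in the joint fit and edgeR 7 and 0. This list holds genes of more than 1 cell type, since Lyz2 and Lgals3 are also abundant in monocytes and neutrophils. The lysosomal genes Ctsb, Ctsd, Ctsl, Ctsz, Cd63, Cd68 and Npc2 had log2 fold changes between -0.59 and 0.07 in the joint fit, and limma called none of them.

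Apoe, the lipid carrier that TREM2 binds, was at 16717 and 16202 CPM in the pilot midbrain against 7120 and 6914 CPM in the striatum. In the second cohort it was at 16252 and 18912 CPM against 8547 and 4067 CPM. The log2 fold change was 1.39 ± 0.19 in the joint fit (limma, adjusted p = 0.0174), with the regions apart in both cohorts. Lyz2, the myeloid lysozyme, had 2583 and 2275 CPM against 964 and 1456 CPM, and 9678 and 5299 CPM against 1770 and 1323 CPM, a log2 fold change of 1.61 ± 0.26 (limma, adjusted p = 0.0209). Igf1, a growth factor of DAM and of microglia in developing white matter, had 36.6 and 41.9 CPM against 19.3 and 19.2 CPM, and 44.6 and 60.8 CPM against 16.4 and 22.3 CPM, a log2 fold change of 1.20 ± 0.21 (limma, adjusted p = 0.0248).

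Gpr65, a proton-sensing receptor, was at 16.9 and 14.4 CPM in the pilot midbrain against 4.74 and 2.22 CPM, and at 39.7 and 18.8 CPM against 5.46 CPM and 0 reads, with a log2 fold change of 2.64 ± 0.50 in the joint fit (limma, adjusted p = 0.0356). Called in each cohort but not in the joint fit were Cd52 (log2 fold change 1.20 ± 0.27; limma, adjusted p = 0.0616), Lgals3, which encodes galectin-3 (1.71 ± 0.41; adjusted p = 0.0782), and Cd83 (0.92 ± 0.23; adjusted p = 0.0816). Lgals3 stood at 1059 and 236 CPM in the 2 midbrain libraries of the second cohort.

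The ligands, receptors and proteases that work with the 10 genes mostly did not pass the test. Of 24 such partners, 1 was called in the joint fit (Ctsc, higher), against 0.975% of all genes called higher. The median log2 fold change of the 24 was -0.05. Without the shallowest library 0 were called. Ctsc encodes the protease cathepsin C, a target of cystatin F. It was at 455 and 509 CPM in the pilot midbrain against 275 and 221 CPM in the striatum, and at 925 and 645 CPM against 336 and 586 CPM, a log2 fold change of 0.92 ± 0.18 (limma, adjusted p = 0.0410). Cd44, a receptor for osteopontin, was called in each cohort, with 17.8 and 18.2 CPM against 10.2 and 6.78 CPM in the pilot and 130 and 41.3 CPM against 18.2 and 12.03 CPM in the second. Its log2 fold change of 1.61 ± 0.45 in the joint fit did not pass (limma, adjusted p = 0.122). Gas6, the ligand of Axl, stood at 0.44 and Csf1r at -0.31 on the log2 scale, and neither was called.

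Homeostatic genes of microglia lay on the side of Trem2. All 14 of them had a negative log2 fold change in the joint fit, with a median of -0.62, of which 2 passed the test (Siglech and Olfml3, the latter at -0.62 ± 0.12; limma, adjusted p = 0.0367). The joint fit called 0.0854% of all genes lower. For 12 of the 14 homeostatic genes the midbrain libraries lay wholly below the striatum in both cohorts, against 6.04% of all genes. At an unadjusted p under 0.05 the joint fit of limma held 12 of them, or 11 without the shallowest library, where 0 passed the adjusted threshold, and DESeq2 called 6 and edgeR 1. Over all genes the joint fit held 2046 of 14053 at that unadjusted level. The summed level of the 14 homeostatic genes was 20138 to 23375 CPM in the midbrain libraries and 28667 to 35578 CPM in the striatum libraries. P2ry12, the purinergic receptor of resting microglia, had -0.88 and Tmem119 -0.45, and neither was called in the joint fit.

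**Figure D4:**
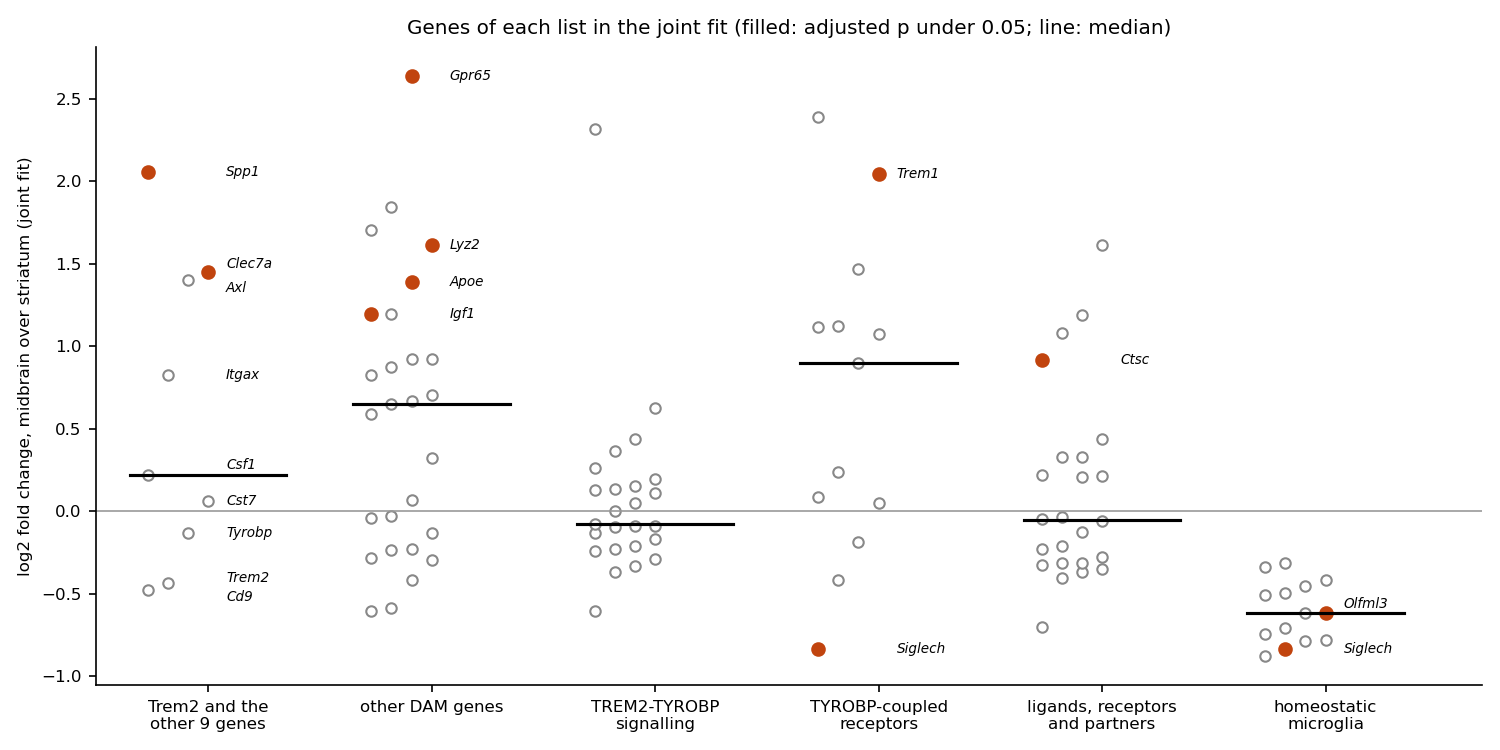
Log2 fold change, midbrain over striatum, in the joint fit (y axis) of the genes of 6 lists (x axis; points are spread sideways only to separate them), with genes of an adjusted p under 0.05 filled and labelled, the 9 tested genes all labelled, and a line at each list's median. The medians are 0.22 for the 10 genes, 0.65 for other DAM genes, -0.07 for TREM2 and TYROBP signalling and -0.62 for homeostatic genes, and Siglech stands in 2 of the lists.

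Marker genes of other cells moved with region as well. In the joint fit, 7 of 9 border macrophage markers, 3 of 8 monocyte markers and 5 of 9 neutrophil markers were higher in the midbrain and 0 lower (limma). This fit called 0.975% of all genes higher. All 9 border macrophage markers were called with edgeR and with DESeq2, and 0 with limma without the shallowest library, where all 9 were higher at an unadjusted p under 0.05. Without that library limma called 0 monocyte and 0 neutrophil markers too, with 8 and 7 higher at an unadjusted p under 0.05, and over all libraries edgeR called 4 and 5 and DESeq2 7 and 5. Summed monocyte markers ranged from 358 to 3021 CPM in the midbrain and from 152 to 232 CPM in the striatum libraries, and neutrophil markers from 1132 to 6578 CPM and from 852 to 1010 CPM. These ranges are apart as those of Spp1, Clec7a and Axl are. Among T and NK cell markers, which summed to 87.8 to 309 CPM in the midbrain and 18.9 to 62.2 CPM in the striatum, 1 of 6 tested was called higher (0 without that library), and Cd3g was at 0 in the striatum of both cohorts and Cd3e in that of the second. Within the second midbrain, Axl, Spp1 and the monocyte and neutrophil sums were higher in replicate 1, while Clec7a and the border macrophage sum were higher in replicate 3. The pilot midbrain was ordered otherwise. There Axl and the monocyte, neutrophil and border macrophage sums were higher in replicate 1, while Spp1 and Clec7a were higher in replicate 2.

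Immediate early genes, which rise when microglia are dissociated, were called higher in the midbrain for 2 of 14 genes in the joint fit, against 0.975% of all genes. Of the 14, 12 were positive in that fit, with a median log2 fold change of 0.61. The second cohort alone called 7 of the 14 higher, against 2.88% of all genes, and the pilot cohort 2, against 2.09%. Without the shallowest library the joint fit called 0 of the 14. Their summed level was 20087 and 23703 CPM in the pilot midbrain against 14655 and 23888 CPM in the striatum, which overlap, and 25049 and 22936 CPM against 12663 and 12209 CPM in the second cohort, which do not. Of the 9 dendritic cell markers 8 were tested, 7 of which had a positive log2 fold change, with a median of 1.19. For 5 of the 9 the midbrain lay wholly above the striatum in both cohorts, against 9.06% of all genes. Limma called 1 in the joint fit, Siglech, which was lower and dominates the summed level, and 4 were higher at an unadjusted p under 0.05. DESeq2 called 3 higher and 1 lower. No astrocyte, oligodendrocyte, endothelial or neuronal marker was called by limma in the joint fit. At an unadjusted p under 0.05 there were 1 higher and 1 lower astrocyte marker, 1 lower endothelial and 1 lower neuronal marker. Over all genes the joint fit held 2046 of 14053 at that level. DESeq2 called 1 astrocyte marker, which was lower. The median log2 fold changes of the astrocyte, oligodendrocyte, endothelial and neuronal lists were 0.23, 0.20, -0.09 and 0.32. The astrocyte value averages opposite cohorts, with medians of 0.81 in the pilot and -0.94 in the second, where limma called 1 marker lower. The endothelial medians were opposite too, at -0.30 and 0.74. The part of any of these cells or of dissociation in the levels of the 10 genes was not tested.

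**Figure D5:**
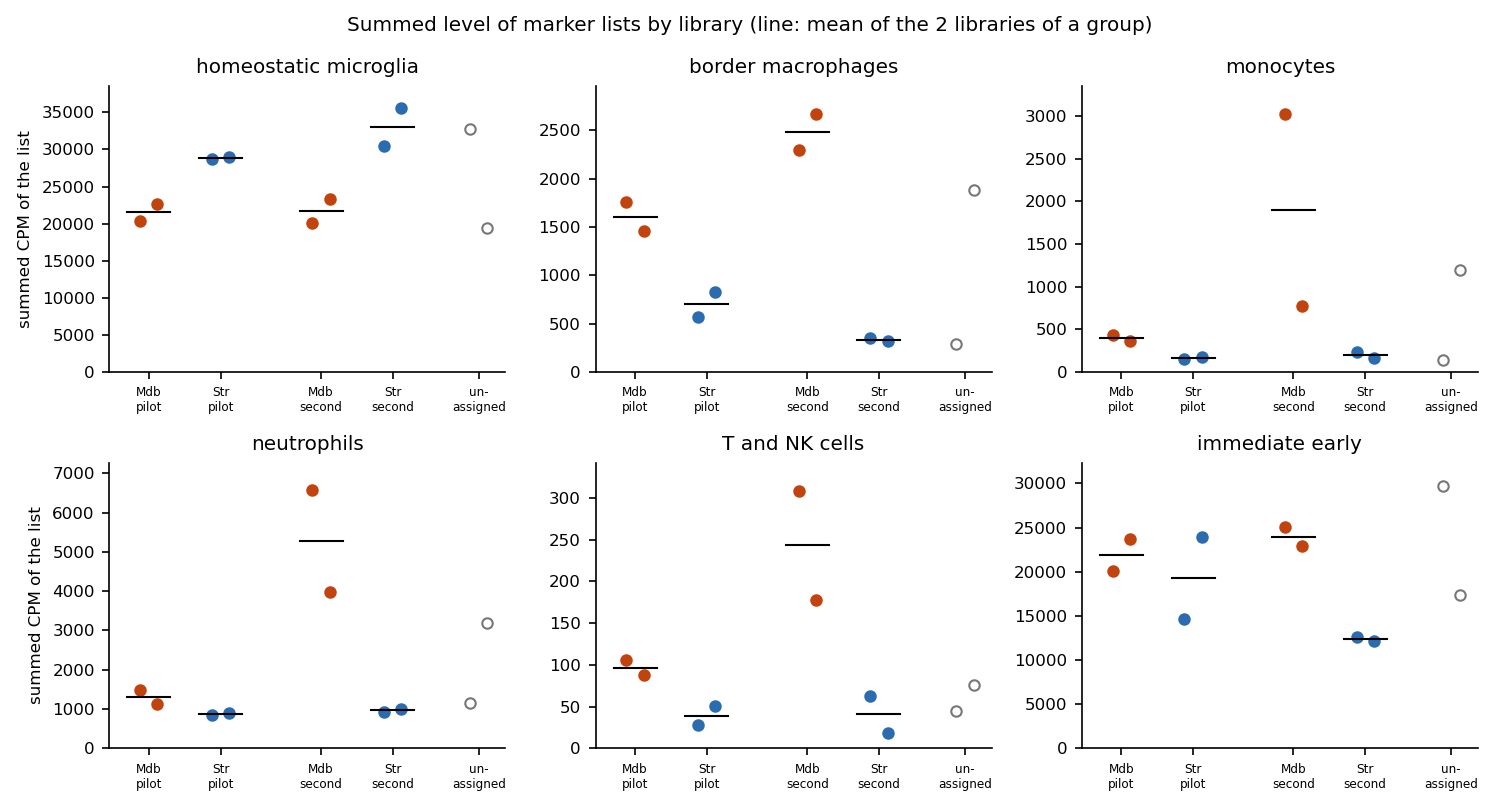
Summed CPM (y axis, linear, from 0) of 6 marker lists in each library, by group and cohort, with midbrain in orange, striatum in blue, the 2 libraries of conflicting labels as open grey circles and lines for the means of 2 libraries. The homeostatic sum is lower and the border macrophage, monocyte, neutrophil and T and NK cell sums are higher in the midbrain of both cohorts, and immediate early genes overlap in the pilot cohort.

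The 2 libraries whose labels conflict were unlike each other. The library titled "Mdb 2", with 1584013 counts, held 4.89 CPM of Spp1, 14.7 CPM of Axl, 30.6 CPM of Clec7a and 1735 CPM of Trem2. The library titled "Str 2", with 5194739 counts, held 99.6 CPM of Spp1, 74.7 CPM of Axl, 78.7 CPM of Clec7a and 1391 CPM of Trem2. Their border macrophage markers summed to 284 and 1880 CPM. With both libraries added to the second cohort in the region of their titles, 0 of the 9 genes were called in that cohort, where 132 of all 13254 genes were, and the log2 fold change of Spp1 was -0.15. With both in the region of their other label, 3 of the 9 genes were called (Spp1, Axl and Clec7a), where 692 of all 13254 were, and the log2 fold changes of Spp1 and Trem2 were 2.79 and -0.47. Their values were not used to settle which label holds.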

How the data were processed

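Reads had been aligned to GRCm38 by the authors (STAR 2.5.3a) and assigned to Gencode M17 genes by featureCounts 1.6.0 at default settings, that is over exons, without strand and without reads of more than 1 gene. The authors deposited raw read counts for 53715 genes per library. No use of molecular identifiers is stated. Symbols were matched to 53620 of these genes. As in the study's methods, TMM factors (edgeR 4.0.16) scaled the libraries, and limma 3.58.1 (R 4.3.3) fitted each gene by voom, lmFit and eBayes. A gene left the fit where over 50% of its libraries had fewer than 6 counts of it. Genes were called at an unadjusted two-sided p under 0.01 within a cohort, and at a Benjamini-Hochberg adjusted p under 0.05 over all genes in the joint fit and its interaction term. Replicates of a group differed beyond the counting noise of reads (chi-square per degree of freedom of 7.70 to 27.3), and none was merged. Since amplified reads are not separate molecules, these values cannot show whether replicates are separate animals. The scripts were tested on simulated data.

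The 10 genes and all lists were chosen with earlier results of these data known. Named from the lists were genes called in the joint fit or, in 1 direction, in both cohorts, and otherwise the 3 with the largest joint change and at least 10 counts in every assigned library, together with the 5 profiles nearest to Trem2, of which 1 is not reported here. Other genes were named after their values were seen. As alternatives, DESeq2 1.42.0, edgeR's quasi-likelihood test, library size scaling, other filters and thresholds, the replicate number as a block, thinning, sample quality weights, leaving out each library, and both placements of the 2 unassigned libraries were tried.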

Additional observations from a re-analysis of the deposited data

Results flagged for a closer look

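The library titled "Str 2", whose other label names the midbrain, was left out of the comparisons except where an alternative placed it in a region, and 4 of the 10 genes were higher in it than in any of the 8 assigned libraries. It held 103 CPM of Cst7, which was at 26.1 CPM or less in the assigned libraries. Spp1 stood at 99.6 CPM, above the 71.9 CPM of replicate 1 of the second midbrain, and Clec7a at 78.7 CPM, above the 65.2 CPM of replicate 3. Gpnmb, at 6.41 CPM or 32 reads, had its next highest level at 2.12 CPM. These values come from a single library of unsettled region. The groups of 2 libraries were too small for a test of outlying samples.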

How the results depend on the processing

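In the pilot cohort the count of genes called among the 9 tested went from 4 to 0 at an adjusted p under 0.05 (limma), and ranged from 1 to 7 when each library was left out in turn, where a lone library was assumed to vary like the others. It was 1 (Spp1) without midbrain replicate 1, 2 without midbrain replicate 2, and 7 without striatum replicate 1, which added Trem2, Tyrobp and Cd9 as lower in a fit that called 2445 of all 14571 genes. The pilot count was 3, without Itgax, with DESeq2, library size scaling, the replicate block, thinning or sample quality weights. In the second cohort the count of 3 went to 0 at an adjusted p under 0.05 and to 1 (Axl) with at least 10 counts in every library, a filter that Spp1 and Clec7a did not pass. It went to 0 with the unassigned libraries placed by title, where the log2 fold change of Spp1 was -0.15. Leaving out a library gave 1 to 4, the lowest without striatum replicate 1. In the joint fit the count of 2 became 4 with DESeq2 (with Axl higher and Trem2 lower), 5 without a filter on low counts (with Axl, Trem2 and Cd9), 6 at an unadjusted p under 0.01, 1 (Axl) after thinning to the smallest library, 0 with at least 10 counts in every library and 0 with the unassigned libraries placed by title. Leaving out a library gave 0 to 3. edgeR, sample quality weights and placement by the other label each gave 3 (Spp1, Axl, Clec7a). The interaction gave 0 of the 9 in all 20 alternatives. For libraries assigned by both labels, Trem2, Spp1, Axl, Clec7a and Cd9 kept their sign in every alternative that gave a value, in every fit. The joint log2 fold change of Trem2 lay between -0.51 and -0.39 and that of Spp1 between 1.81 and 2.21.

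Over all genes, the joint fit called 149, against 544 with DESeq2, 237 with edgeR, 277 without a filter, 412 with quality weights and 57 with at least 10 counts in every library. Leaving out 1 library gave 0 to 238. The pilot cohort called 395, or 822 without a filter and 108 to 2445 with a library left out, and the second 468, or 204 with at least 10 counts and 393 to 1240 with a library left out. The deviations of same-numbered libraries had a correlation of -0.034 in the pilot and 0.078 in the second cohort. With 2 libraries per region this cannot tell whether they share a mouse. The titles' numbers were not taken as pairs because no source used here says which libraries do. With the title's number as a replicate block, 3, 3 and 3 of the 9 genes were called in the pilot, second and joint fits, and 401, 988 and 308 over all genes. Depth limits the low genes: 3 counts in the shallowest library equal 5.16 CPM.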
